A study of Mus musculus with 2 samples.

Results

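Sg is the cluster of testis cells that the authors named spermatogonia, the mitotic germ cells from which meiosis starts. Its members were taken as the cells with the entry Sg in the deposited cell table, and they number 421 of 12408 cells in all, 219 of the 5170 cells of the wild-type (WT) library and 202 of the 7238 cells of the Tex13a-knockout (KO) library. Both libraries came from adult mice of the strain C57BL/6, given as C57BL/6N in the study's methods. The KO mice lacked all reading frames of Tex13a after CRISPR/Cas9 editing in every cell of the body, and the WT mice carried the unedited gene. For each genotype 3 testes were pooled, digested with collagenase I, captured in microwells with barcoded beads and sequenced as 1 library, so no difference between the genotypes has a replicate check. The 13 clusters of the table are Sg, 2 of spermatocytes (Sc1 and Sc2) and 10 named Sd1 to Sd10, of which Sd1 is a mixture of spermatocytes and early spermatids and the others are spermatids.

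Spermatogonia lie at the wall of the seminiferous tubule. A small pool of undifferentiated cells renews itself, and retinoic acid, signalling through receptors in the nucleus, moves the others into a series of differentiating divisions and then into meiosis, when the gene Stra8 is switched on strongly. In meiosis the X and Y chromosomes are condensed into the sex body and transcriptionally silenced, so that X-linked transcripts are a known feature that separates spermatogonia from later spermatocytes.

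The Sg cells held 1642098 unique molecular identifiers (UMIs, each counting 1 captured transcript) in WT and 1448272 in KO. The median was 6133 UMIs and 2654 genes per WT cell and 5859 UMIs and 2580 genes per KO cell, and single cells ranged from 3396 to 36665 UMIs in WT and from 3845 to 22446 in KO. Mitochondrial UMIs made up a median of 2.10% in WT and 2.17% in KO. Sg made up 4.24% of the WT cells (exact binomial 95% interval 3.70 to 4.82) and 2.79% of the KO cells (2.42 to 3.197). Each share describes 1 cell suspension. Levels below are summed UMIs of a cluster in a library scaled to a common total of UMIs, as CPM. Intervals are 95% intervals, exact Poisson for levels and exact binomial for shares of cells, and cover counting error only, and since UMIs come grouped in cells even that error is understated. The median depth per cell differed between clusters, being 11862 UMIs in WT Sc2 and 5254 in WT Sd8, and shares of cells with a UMI are therefore also given after every cell was thinned to 3000 UMIs.

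The label was checked against marker genes. Dmrt1, a transcription factor of spermatogonia, and Rhox13, an X-linked homeobox gene, could not be read singly, because fewer symbols than matrix rows were deposited and 3 neighbouring rows can be Dmrt1 and 13 can be Rhox13. The 3 rows that can be Dmrt1 held 253, 5 and 366 UMIs in WT Sg and 257, 1 and 321 in KO Sg. The level of the first in Sg was 1.39-fold that of the highest other cluster in WT and in KO, that of the second was below the highest other cluster, and that of the third was 4.15-fold in WT and 5.74-fold in KO. No row was chosen from these values. Of the 219 WT cells, 208 (94.98%, 91.2 to 97.5) had UMIs of at least 2 of the 9 readable markers of differentiating spermatogonia, as did 195 of 202 KO cells (96.5%, 93.0 to 98.6), and each of these cells also had at least 2 of 12 general germ cell markers. These shares do not set Sg apart from later stages, since by the same rule 217 WT and 201 KO cells of Sg had markers of meiotic entry, 214 and 201 of pachytene and 219 and 202 of spermatids. The share with 2 or more of the 7 readable markers of undifferentiated spermatogonia was 47.03% in WT (103 cells) and 45.05% in KO (91 cells), and 18.7% and 17.3% after thinning. Of those cells, 102 in WT and 90 in KO also carried 2 or more markers of differentiating spermatogonia. Tex13a itself can stand for 7 rows, 1 of which had 26 UMIs in WT Sg and 0 in KO Sg. Over all clusters that row had 2295 UMIs in WT and 0 in KO, while the other rows had UMIs in both libraries. Tex13a was not read as a result in this cluster.

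Among singly readable genes with at least 100 UMIs, Ccnd2, Hes1, Sdc4, Crabp1 and Nans set Sg apart most strongly from the other 12 clusters. Each was at least 9.41-fold above the highest other cluster in both libraries. Symbols with more than 1 possible row were not ranked. Their rows can have higher ratios, as 1 of the 24 rows that can be Sall4, with 52.8-fold in WT and 23.3-fold in KO. That row can belong to a neighbouring gene, and other rows that can be Sall4 were below the highest other cluster. In each library 4277 singly readable genes had 10 or more UMIs in Sg, and 584 of them had their highest level in Sg in WT and in KO, which is 13.7% of the genes read. Of the 584, 107 were at least 2-fold above the highest other cluster in both libraries (2.5% of the genes read) and 24 at least 4-fold (0.561%). The clusters were built from these same genes, so the values describe Sg and are not a test. The gene just inside the 2-fold limit was Apbb1, with a ratio of 2.02, and the nearest outside had 1.996. For 76 of the 107 genes in WT and 81 in KO the next cluster was Sc1, the early spermatocytes, and for 66 it was Sc1 in both libraries.

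Ccnd2 is a D-type cyclin that drives the entry of spermatogonia into S phase. Among singly readable genes with at least 100 UMIs it had the highest ratio. It had 214 UMIs in WT Sg (130.3 CPM, 113 to 149) and 80 in KO Sg (55.2 CPM, 43.8 to 68.7). The next cluster was Sd6 with 3.47 CPM in WT and Sc1 with 1.34 CPM in KO, far below Sg in both libraries. Hes1, a transcriptional repressor downstream of Notch, stood at 94.4 CPM in WT and 50.4 in KO, against at most 4.90 and 3.39 CPM elsewhere. Sdc4, a cell surface proteoglycan, stood at 188 and 63.5 CPM in Sg against 4.90 and 4.01 in Sc1. These 3 genes had a UMI in a minority of Sg cells, and their WT levels were above those of KO with intervals that did not overlap.

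Crabp1 and Uchl1 were read in most Sg cells. Crabp1, which binds retinoic acid in the cytoplasm, had 447 CPM in WT Sg (415 to 481) and 370.1 in KO Sg (339 to 403), and 44.1 and 34.7 CPM in Sc1. Uchl1, a ubiquitin hydrolase long used as a marker of spermatogonia, had 511 CPM in WT (477 to 547) and 416 in KO (383 to 450.2), and 73.5 and 54.7 CPM in Sc1. Crabp1 was thus 9.93-fold above Sc1 in WT and 10.3-fold in KO, and Uchl1 6.87-fold and 7.43-fold. A UMI of Crabp1 was found in 169 of 219 WT cells (77.2%) and 163 of 202 KO cells (80.7%), and of Uchl1 in 183 (83.6%) and 173 (85.6%). In the spermatids of Sd8, taken as cells that should lack both genes, the shares were 0.162% and 0.128% for Crabp1 and 5.83% and 6.76% for Uchl1.

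The other 15 of the 20 genes with the highest ratios and at least 100 UMIs had varied known roles. Psma7, a subunit of the proteasome core, was the most abundant of the non-ribosomal ones, with 1393 CPM in WT and 1438 in KO against 291 and 336 in Sc1. Mif, a small cytokine, had 1001 and 902 CPM against 224 and 244 in Sc1. Nans, an enzyme of sialic acid synthesis, had 149 and 137 CPM, and Hk2, a hexokinase of the first step of glycolysis, 60.9 and 39.4 CPM. Gpx1 and Prdx2, enzymes that remove peroxides, had 62.7 and 50.5 CPM in WT and 40.7 and 45.6 in KO. Eif4ebp1, a repressor of cap-dependent translation, was 4.46-fold above the next cluster by the lower of its ratios, Anp32a, a histone-binding protein, 4.26-fold, Arpc1b, a subunit of the actin-nucleating Arp2/3 complex, 3.98-fold, and Polr3g, a subunit of RNA polymerase III, 3.23-fold. Tmem50a, Uap1l1 and D10Wsu102e, whose roles are less clear, were 5.33-fold, 4.14-fold and 3.49-fold above it. Cox7b, a subunit of cytochrome oxidase, and Rps2, of the small ribosomal subunit, complete the 20 and are taken up with their groups below.

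**Figure D1:**
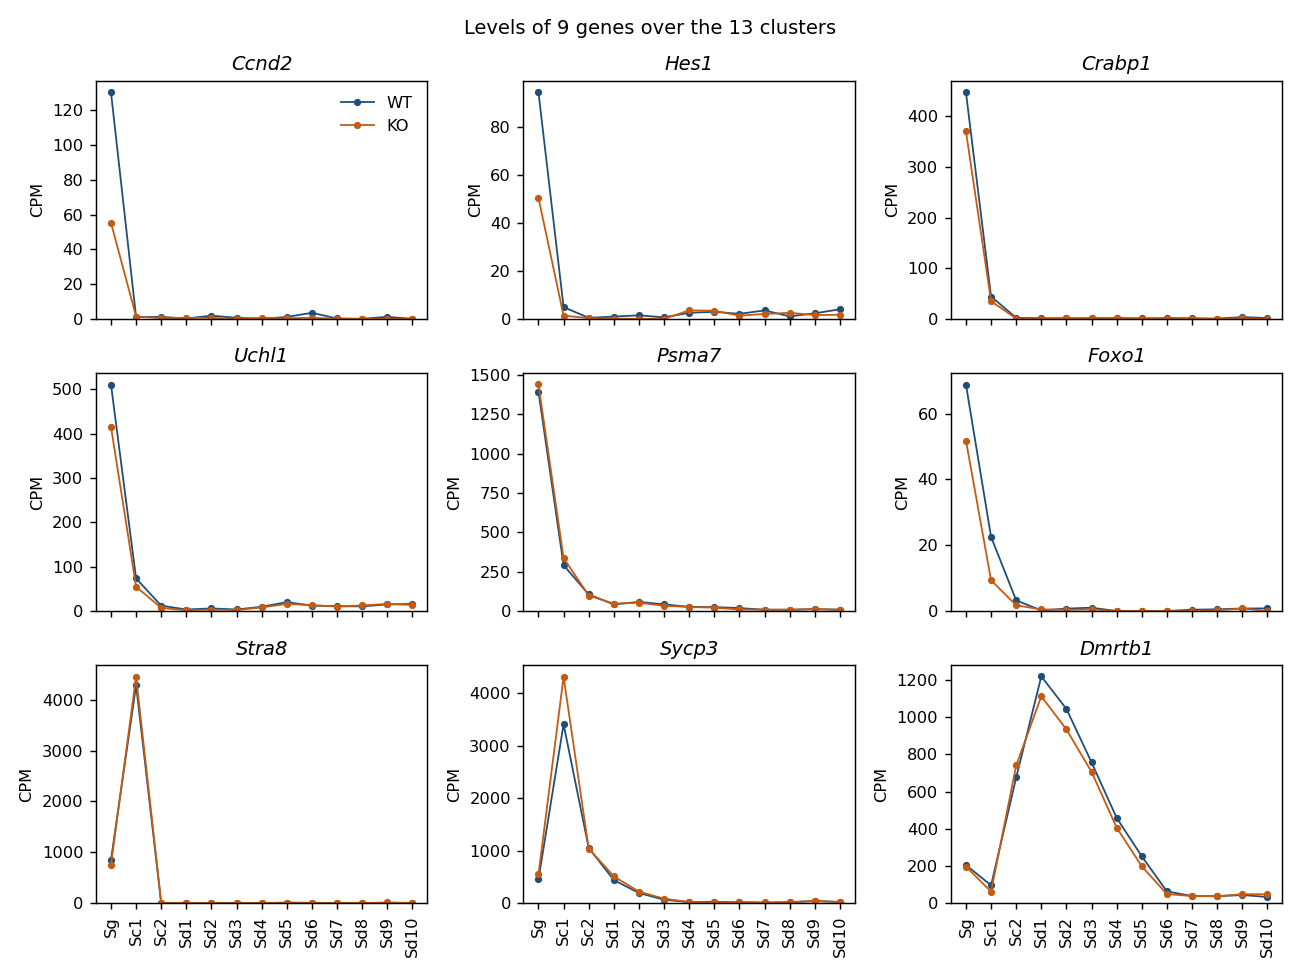
Level of 9 genes over the 13 clusters. The horizontal axis gives the cluster and the vertical axis the summed UMIs in CPM on a linear scale that differs between panels, with 1 point per library and cluster, WT in blue and KO in orange. Ccnd2, Hes1, Crabp1, Uchl1, Psma7 and Foxo1 have their highest point in Sg in both libraries, Stra8 and Sycp3 in Sc1, and Dmrtb1 in Sd1.

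In the GENCODE vM21 annotation of GRCm38, Ccnd2 lies on chromosome 6 from 127125162 to 127152193 on the minus strand, Hes1 on chromosome 16 from 30064384 to 30067796 on the plus strand, Sdc4 on chromosome 2 from 164424247 to 164443887 on the minus strand, Crabp1 on chromosome 9 from 54764748 to 54773110 on the plus strand, and Psma7 on chromosome 2 from 180036374 to 180042433 on the minus strand. The 250 bases before the transcription start were searched for the GC box, written GGGCGG and read on both strands, which is the core of the site bound by Sp-family factors at many broadly used promoters. RefSeq promoters of GRCm38.p6 were matched for 81 of the 107 genes higher in Sg, and 65 of their 104 promoters (62.5%) held at least 1 GC box. The share was 51.1% of the 4200 promoters of 3316 genes read in Sg and 32.7% of all 32851 promoters. The median number of CpG dinucleotides was 16.5, 15 and 6 in the same order. Of the promoters looked at singly, those of Uchl1 and Gpx1 held no such letters and those of Crabp1, Psma7 and Sdc4 held 5, 5 and 4. The bases just after the RefSeq start were found in a GENCODE transcript for Crabp1, Uchl1 and Gpx1, but not for Psma7 and Sdc4. The stretches around the GC box nearest to the start are shown for these 3 genes, chosen after their levels were seen as leading markers of Sg with a matched promoter, with the box in capitals, on the strand of the gene and from 5′ to 3′. They lie at chr9:54764711-54764740 on the plus strand, 25 bases before the RefSeq start of Crabp1, at chr2:180042480-180042509 on the minus strand, 33 bases before the RefSeq start of Psma7, which lies upstream of the GENCODE one, where the box reads in the reverse orientation, and at chr2:164443221-164443250 on the minus strand, 50 bases before the RefSeq start of Sdc4, which lies inside the GENCODE gene.
Crabp1: cacgcagggcagGGGCGGgacttgagggcg
Psma7: gcccgccctgccCCGCCCcgccgtgccgca
Sdc4: ggcgagcactggGGGCGGggcagggctgct

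The markers of undifferentiated spermatogonia that could be read singly had low levels in Sg. Of 34 markers of undifferentiated spermatogonia 6 could be read in Sg, and 5 of these were highest there, 3 by at least 2-fold, beside 13.7% and 2.5% of all genes read. Foxo1, a transcription factor needed for stem cell maintenance, had 68.8 CPM in WT and 51.8 in KO, against 22.5 and 9.35 in Sc1. Lmo4, a LIM-domain cofactor, had 66.4 and 41.4 CPM against 18.6 and 16.02. Id2, an inhibitor of helix-loop-helix factors, had 23.8 and 11.7 CPM, from only 39 and 17 UMIs. Epcam, an adhesion molecule, and Rarg, a retinoic acid receptor, were highest in Sg by less than 2-fold. Id4, often used as a stem cell marker, ran the other way, with 24.4 and 25.5 CPM in Sg and 209 and 184 CPM in Sc2. Sall4, Zbtb16 and Nanos3 could not be read singly, with 24, 7 and 10 possible rows. The highest ratios of Sg to the highest other cluster among their rows were 52.8, 18.4 and 7.06 in WT and 23.3, 14.5 and 5.22 in KO. The lowest were 0.036, 0.10 and 0.057 in WT, and each row can belong to a neighbouring gene. Gfra1, with 6 possible rows, and Etv5, with 2, reached at most 2.48 and 1.87 in WT and 0.64 and 0.52 in KO. No row was chosen from these values either.

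Of 32 markers of differentiating spermatogonia 9 could be read, 5 of them highest in Sg and 3 by at least 2-fold, namely Ccnd2, Crabp1 and Uchl1, beside the same 13.7% and 2.5%. Kit, the receptor of stem cell factor, was also highest in Sg, at a low level of 22.5 CPM in WT and 33.8 in KO, with a UMI in 27 WT cells (12.3%) and 39 KO cells (19.3%). The other was Tex11, an X-linked gene of meiotic recombination. Dmrtb1, a transcription factor that acts at the change from spermatogonial divisions to meiosis, had 205 and 196 CPM in Sg and peaked in Sd1 with 1219 and 1112. Stra8, the retinoic acid target needed for meiotic initiation, had 850.1 CPM in WT Sg and 757 in KO Sg, against 4287 and 4453 in Sc1. The summed level of the list was 2709 CPM in WT Sg and 2502 in KO Sg, below the 5969 and 5899.8 CPM of Sc1, most of which was Stra8.

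The list of meiotic entry had a lower sum in Sg than in Sc1. None of the 20 readable genes of meiotic entry was highest in Sg, and the list summed to 5807 CPM in WT and 6633 in KO, against 27254 and 28524 in Sc1, 7845 and 7005 in Sc2 and 2942 and 3156 in Sd1, with lower sums than in Sd1 in Sd2 to Sd10. Sycp3, of the axial element of the synaptonemal complex, had 454 and 548 CPM in Sg and 3409 and 4315 in Sc1. Sycp1, of its transverse filaments, had 1138 and 1254 CPM against 4168 and 4395, and Smc1b, a meiotic cohesin subunit, 864 and 1065 CPM against 2095 and 1782. Meiob, which acts in meiotic recombination, had 2 and 8 UMIs in Sg, in 2 of 219 WT cells and 4 of 202 KO cells, whereas a UMI of it was found after thinning in 46.9% and 44.4% of Sc1 cells. Dazl, an RNA-binding protein of germ cells, was found in 95.9% of WT and 99.0% of KO cells of Sg, at 1746 and 1752 CPM, and was higher in Sc1, with 2601 and 2478 CPM.

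**Figure D2:**
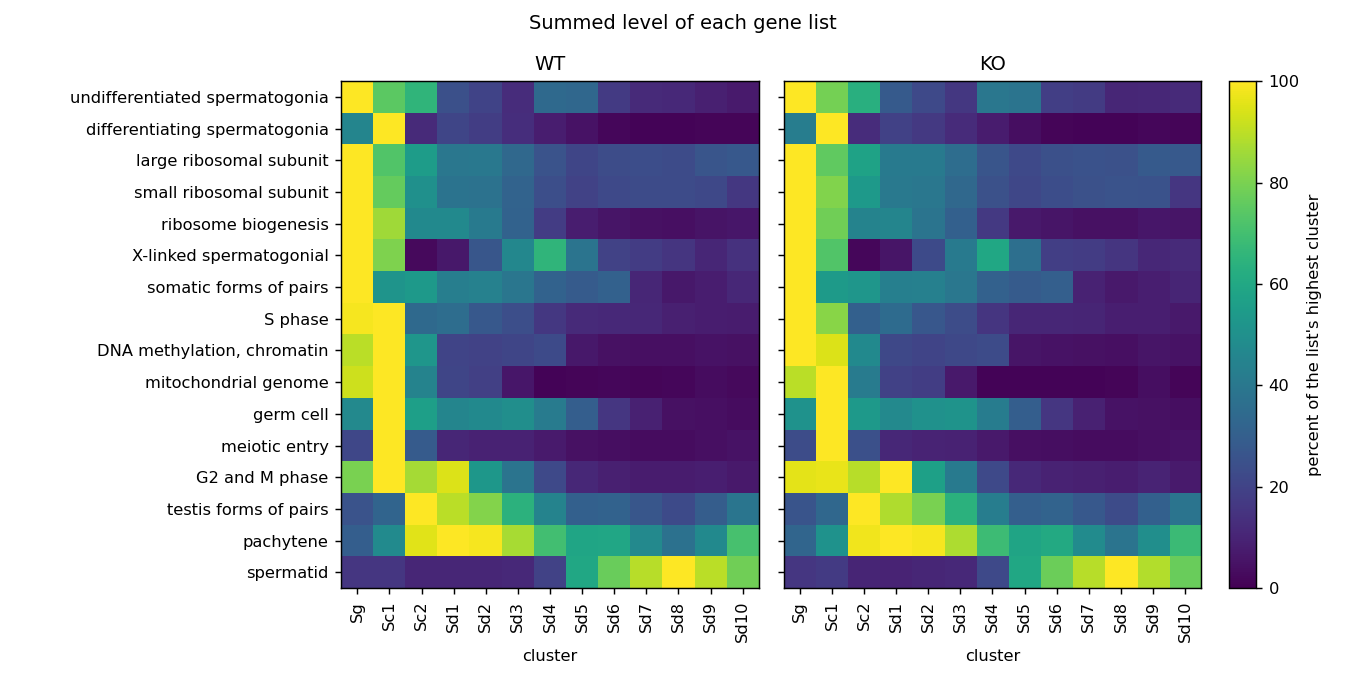
Summed level of 16 gene lists in the 13 clusters, WT on the left and KO on the right. Colour gives the summed CPM of a list in percent of its highest cluster in that library. Sg is the highest cluster in WT and KO for the undifferentiated spermatogonia, both ribosomal subunits, ribosome biogenesis, the X-linked list and the somatic forms of gene pairs, whereas meiotic entry peaks in Sc1.

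Ribosomal protein mRNA was at its highest in Sg. Of 40 readable genes of the large subunit 30 were highest in Sg in both libraries, and of 33 of the small subunit 23, beside 13.7% of all genes read. A lead of at least 2-fold over the next cluster was reached by 2 and 6 of them, beside 2.5% of all genes read. The large subunit summed to 57827 CPM in WT Sg (57460.0 to 58196) and 50591 in KO Sg (50226 to 50959), and to 42021 CPM in WT Sc1 and 32021 in WT Sc2. Rps2 had 2457 CPM in WT and 2187 in KO, against 769.9 and 688 in Sc1, the highest ratio among these genes. Ribosome biogenesis genes, which build the subunits in the nucleolus, summed to 10624 and 11541 CPM, with 14 of 23 highest in Sg. Ncl, the nucleolar protein nucleolin, had 3870.1 CPM in WT and 4554 in KO against 3184 and 3190 in Sc1. By contrast 9 of 32 translation factors were highest in Sg, and their sum in WT, 16083 CPM, was below that of Sc1 (17020 CPM) and Sc2 (19871 CPM).

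The summed levels of the lists of S phase and of DNA methylation and chromatin were similar in Sg and Sc1, while single members differed. Of 16 readable genes of S phase 5 were highest in Sg, beside 13.7% of all genes read, and the list summed to 3278 CPM in WT and 3497 in KO, against 3329 and 2881 in Sc1 and 1137 in WT Sc2. Of 28 readable genes of DNA methylation and chromatin 10 were highest in Sg and 3 by at least 2-fold, beside 13.7% and 2.5% of all genes read, and the list summed to 14089 CPM in WT Sg and 15174 in KO Sg, against 15725 and 14379 in Sc1. Dnmt1, which copies methylation at replication, had 217 and 229 CPM in Sg against 106 and 82.8 in Sc1. Dnmt3a, which sets new methylation, had 83.4 and 83.5 CPM against 23.5 and 33.4. Hells, a chromatin remodeller that assists methylation, had 1105 and 1206 CPM against 1003 and 819.7. The list of G2 and M phase summed to 8524 CPM in WT and 10229 in KO, below the 10669 and 10314 of Sc1 and the 10112 and 10648 of Sd1. Of its 27 genes 6 were highest in Sg, beside 13.7% of all genes read, among them Cenpf, a kinetochore protein, with 1049 and 1235 CPM. Rest, a repressor of neuronal genes, and Acvr2b, an activin receptor, were 2.29-fold and 3.08-fold above the next cluster.

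Pairs of genes were compared of which 1 copy is broadly used and the other is made mainly in the testis. In several pairs the first was lower and the second higher in Sc2 than in Sg. Levels here are compared for each gene between clusters of the WT library. Psma7 went from 1393 CPM in Sg to 106 in Sc2, while Psma8, the testis form of that proteasome subunit, went from 60.9 to 609.8 CPM. Cox6b1 went from 587 to 65.97 CPM and its testis form Cox6b2 from 302 to 2463 CPM. Hspa8, a constitutive Hsp70 chaperone, went from 762 to 83.7 CPM and Hspa2, the meiotic form, from 84.0 to 952 CPM. Of the X-linked members, Cox7b went from 88.3 to 0.844 CPM and the autosomal Cox7b2 from 447 to 2922 CPM, and Cetn2, a centrin of the centriole, from 119 to 0.985 CPM and the autosomal Cetn1 from 312 to 1709 CPM. Rpl39 went from 249 to 1.55 CPM, after a peak of 438 CPM in Sc1, and the autosomal Rpl39l from 489.6 to 1439 CPM. For these 3 pairs the testis form was already at the higher level in Sg.

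Not every pair did so. Ldha, a lactate dehydrogenase subunit, was lower in Sg (92.6 CPM) than in Sc2 (818 CPM), as was its testis form Ldhc (1286 and 7320 CPM). Ybx1 and Ybx2, RNA-binding proteins of stored mRNA, were both lower in Sg, with 815 and 275 CPM against 2328 and 1376 in Sc2. Slc25a4 and Slc25a31, carriers of ADP and ATP, had 28.01 and 275 CPM in Sg, and Slc25a31 peaked in Sc1 with 407 CPM. Of 12 readable broadly used members 8 were highest in Sg in both libraries and 5 by at least 2-fold, and of 20 testis forms 0, beside 13.7% and 2.5% of all genes read.

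The share of X-linked UMIs was similar in Sg and Sc1 and far lower in Sc2. They made up 1.16% of the UMIs of genes with a known chromosome in WT Sg (1.14 to 1.18) and 1.20% in KO Sg (1.18 to 1.22), close to 1.20% and 1.15% in Sc1. The share was 0.142% and 0.112% in Sc2 and 0.132% and 0.119% in Sd1, and reached 2.64% and 2.58% in Sd7. Of 93 X-linked genes read in Sg 37 were at least 10-fold lower in WT Sc2 than in WT Sg, against 151 of 4184 other genes (3.61%). Between Sg and Sc1 the same count was 1 X-linked and 21 other genes (0.502%). The median log2 ratio of Sc2 to Sg was -2.48 over the X-linked genes and -0.22 over the others.

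Rpl36a, an X-linked gene of the large ribosomal subunit, had 653 CPM in WT Sg, 294 in Sc1 and 1.97 in Sc2. Map7d2, a microtubule-associated protein, had 549.9 CPM in Sg, 527 in Sc1 and 2.25 in Sc2. Scml2, a Polycomb-related protein of the germline, had 290.5, 423 and 2.81 CPM in the same order, and Taf1, the largest subunit of the general factor TFIID, 171, 166 and 0.141 CPM. Eif1ax, a translation initiation factor, had 319.7 CPM in Sg and 12.5 in Sc2, and came back to 290.3 CPM in Sd7, while Rpl36a stayed at 1.94 CPM there. Of the 93 genes 18 were highest in Sg, beside 13.7% of all genes read, and 4, Klhl13, Cox7b, Rpl36a and Brcc3, were so by at least 2-fold, beside 2.5%. Part of the X-linked UMIs in Sg belong to genes of late spermatids, such as Akap4, the main protein of the fibrous sheath of the sperm tail, with 199.7 CPM in WT Sg and 1152 in Sd7.

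**Figure D3:**
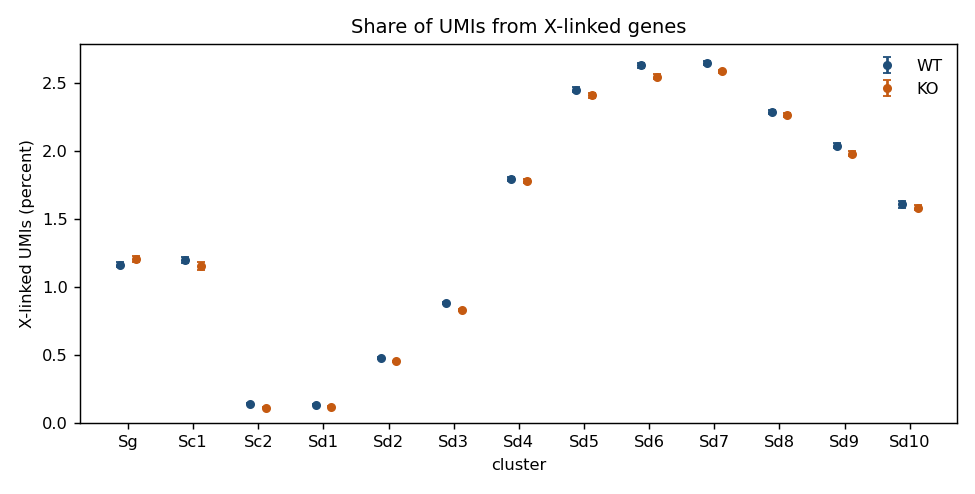
Percent of UMIs from X-linked genes in each cluster, with exact binomial 95% intervals for counting error, WT in blue and KO in orange. The points of Sg and Sc1 lie between 1.15% and 1.20%, those of Sc2 and Sd1 between 0.112% and 0.142%, and the highest are in Sd7.

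The Sg cells were not uniform. Ccnd2 UMIs were found in 50 WT cells (22.8%, 17.4 to 28.97), with up to 17 in a cell, and in 14 KO cells (6.93%, 3.84 to 11.4), with up to 20. Stra8 UMIs were found in 137 WT cells (62.6%) and 123 KO cells (60.9%) with a median of 1 UMI, but the highest cells held 73 and 86, and the 10% of cells with most Stra8 UMIs held 54.5% of them in WT and 65.1% in KO. Both genes were read in 36 WT and 9 KO cells, only Ccnd2 in 14 and 5, only Stra8 in 101 and 114, and neither in 68 and 74.

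The cells with a Ccnd2 UMI differed from the other Sg cells in several genes, which is given as a description since the cells were chosen by their own counts and were deeper, with a median of 7089 against 5982 UMIs in WT. In WT they held 242 of the 309 Sdc4 UMIs, 551 CPM against 55.7 in the cells without. Stra8 was at 1474 against 622 CPM in WT and at 2433 against 602 in KO. Rps4x, an X-linked gene of the small ribosomal subunit, was at 164 against 26.6 CPM in WT and 129.8 against 24.2 in KO. Id4 was at 59.1 against 11.6 CPM in WT, from 26 and 14 UMIs. Lower in the cells with Ccnd2 were Prss50, a protease first found in testis, with 6.82 against 184 CPM in WT and 0 UMIs against 196 in KO, Epcam with 63.7 against 215 CPM, Tex101, a germ cell surface protein, with 166 against 398, Dmrtb1 with 118 against 237 and Rpl39 with 132 against 292. The list of G2 and M phase was at 5624 against 9584 CPM in WT and 7210 against 10509.7 in KO. Crabp1 ran opposite ways, with 400.4 against 464 CPM in WT and 389 against 368 in KO. In WT somatic markers were higher in the cells with Ccnd2 as well, Sparc with 86.4 against 39.1 CPM, the myoid list with 212 against 87.3 and the Sertoli list with 416 against 343. In KO they were lower there, Sparc with 0 UMIs against 16.6 CPM, the myoid list with 89.2 against 99.6 CPM and the Sertoli list with 235 against 293. Their part in the differences was not tested.

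Transcripts of spermatids were read in Sg as in every other cluster. The 31 readable spermatid genes summed to 55877 CPM in WT Sg and 55295 in KO Sg, and none was highest in Sg. Their level in Sg had a median of 8.26% of the peak cluster in WT (2.42 to 45.6) and 9.03% in KO (2.28 to 45.1), the highest being Ubb, a polyubiquitin gene that peaks in Sc2. Prm1, the protamine that packs sperm DNA, was found in 219 of 219 WT cells and 201 of 202 KO cells with a median of 25 UMIs, and in Sd1 in 99.6% of WT and 99.9% of KO cells with medians of 15 and 16. Single Sg cells ran from 1 to 1828 Prm1 UMIs in WT and from 0 to 1702 in KO. At least 345 Prm1 UMIs, the lowest count of a WT Sd8 cell, were found in 36 WT Sg cells (16.4%) and 27 KO Sg cells (13.4%), and these held 77.1% and 68.8% of the Prm1 UMIs of Sg. In Sc1 the share of such cells was 17.7% and 15.2%, and in Sc2 6.35% and 4.91%. The ratio of Prm1 to Prm2 UMIs was 2.74 in WT Sg and 3.24 in WT Sd8, and that of Prm1 to Tnp1 3.81 and 2.99. The part of free RNA and of cells captured together in these levels was not tested.

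Markers of other testis cells were few, with lower sums in KO than in WT. The intervals of WT and KO overlapped for the myoid, Leydig and macrophage and blood lists and did not for the Sertoli list. The 6 readable Sertoli cell markers summed to 362 CPM in WT Sg and 288 in KO Sg, mostly Ctsl, a cathepsin that was higher still in Sc1 (536 and 590.1 CPM), and in KO Rhox8 was at 0. Of the 4 with enough UMIs in Sg, 3 were highest there and 0 by at least 2-fold, beside 13.7% and 2.5% of all genes read. The 5 myoid and connective tissue markers summed to 121 and 98.7 CPM, of which 1 in WT and 2 in KO were at 0, among them in KO Myh11, the smooth muscle myosin, with 23 UMIs in WT. Most of that sum was Actg2, a smooth muscle actin, with 128 UMIs in WT Sg and 125 in KO Sg and a log2 ratio of KO to WT of 0.15, which was also found in 94.5% of WT and 91.2% of KO cells of Sd8. The 4 Leydig cell markers summed to 89.5 and 78.0 CPM, nearly all Fdx1, which germ cells use too, while Cyp17a1, a defining enzyme of Leydig cells, had 2 and 2 UMIs. The 7 markers of macrophages and blood summed to 46.9 and 42.1 CPM, with 1 and 2 at 0. Without Ctsl, 30 of 219 WT cells (13.7%, 9.44 to 18.97) and 13 of 202 KO cells (6.44%, 3.47 to 10.8) had UMIs of at least 2 markers of 1 of these lists. No endothelial marker could be read singly.

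Between KO and WT the Sg profiles were close. Of 3694 genes with at least 50 UMIs in the Sg cells of both libraries together, 94.3% lay within 1.5-fold, with a median log2 ratio of KO to WT of 0.02 and quartiles of -0.16 and 0.20. At least 2-fold higher in KO were 11 genes (0.298%) and at least 2-fold lower 18 (0.487%). These counts come from a rule of size in 1 library against 1 other and are not numbers of changed genes. They moved with the settings, to 4 and 9 after thinning and 212 and 314 with no filter on UMIs, and to 32 higher genes without the cells that held spermatid amounts of Prm1, a setting added after the data were seen.

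Several of the genes that marked Sg most strongly were lower in the KO library. Of the 107 genes higher in Sg 91 had 50 UMIs. Of these, 7 were at least 2-fold lower in KO and 0 at least 2-fold higher, beside 0.487% and 0.298% of all genes read. By any amount 62 were lower, where 47.5% of all genes read were. The 7 were Sparc, Sdc4, Sparcl1, Ccnd2, Slc25a4, Mef2b and Rpusd1. The median log2 ratio of all 91 was -0.15. Sdc4, with 309 UMIs in WT and 92 in KO, had a log2 ratio of -1.56 (-1.92 to -1.23), and was found in 24.7% and 14.4% of cells. Ccnd2, with 214 and 80 UMIs, had -1.23 (-1.63 to -0.86), and after thinning was found in 17.8% of WT and 5.45% of KO cells. In Sd8 no cell of 618 in WT and 784 in KO had a Ccnd2 UMI, which allows a share of cells with a UMI of up to 0.595% and 0.469% at medians of 5254 and 5269.5 UMIs per cell and not a limit on cells that express it. Hes1 had -0.90 (-1.33 to -0.49), Id2 -0.997 (-1.93 to -0.16), Lmo4 -0.68 (-1.16 to -0.21) and Foxo1 -0.41 (-0.85 to 0.02), the last with an interval that takes in 0. Other markers of Sg differed little, as Psma7 with 0.05 (-0.04 to 0.13), Dnmt1 with 0.08 (-0.14 to 0.30), Crabp1 with -0.27 (-0.44 to -0.11) and Uchl1 with -0.30 (-0.45 to -0.14). In Sc1 the log2 ratio of Ccnd2 was not readable, from 1 UMI in each library.

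Sparc, a matrix protein that Sertoli and stromal cells also make, had 85 UMIs in 28 WT cells and 22 UMIs in 5 KO cells, and the lowest log2 ratio among genes with at least 50 UMIs in both libraries together, -1.75 (-2.52 to -1.08). Sparc was also found in fewer KO cells of other clusters, in 4.30% of WT and 0.893% of KO cells in Sc2 and in 3.88% and 1.28% in Sd8. The Sertoli list was lower in KO in Sg and in 12 of the 13 clusters in all, with 53.7 and 21.8 CPM in Sc2, and higher in KO in Sc1, with 584 and 611 CPM. Without the 30 WT and 13 KO cells that carried at least 2 such markers, Sparc was at -0.73, from 32 and 19 UMIs, and Sparcl1, a related matrix protein, went from -1.48 to -0.13, from 11 and 10 UMIs. Without the same cells Sdc4 was at -1.74, Ccnd2 at -1.25, Hes1 at -0.82 and Lmo4 at -0.73. The part of these cells in any of these ratios, that of Sparc included, was not tested.

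The lowest ratios among genes with at least 100 UMIs also held genes that were less than 2-fold higher in Sg than elsewhere, or not highest there. Ypel3, a growth inhibitor, had -1.21, from 124 and 47 UMIs, Map4k4, a kinase of stress signalling, -1.10, from 71 and 29, and H2afy, the histone variant macroH2A, -0.99, from 133 and 59. Tmem237, of the ciliary transition zone, had -0.99, Mrpl14, of the mitochondrial ribosome, -0.96, Rps4x -0.93 and Gnl1, a GTP-binding protein, -0.92. Rps4x had 63.3 CPM in WT Sg and 33.1 in KO Sg, but 13.7 and 29.4 in Sc1. The levels in Sc1 rest on fewer than the 50 UMIs needed for a ratio, and that difference was not tested.

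Among the 10 highest ratios were at least 2 X-linked genes, Tex11 and 1700013H16Rik, and among the 10 lowest was the X-linked Rps4x. Of the 4277 genes with 10 or more UMIs in Sg of each library, 93 were X-linked. That set is not the genes with at least 100 UMIs ranked here. Tex11 had 116 CPM in WT (99.8 to 133) and 206 in KO (184 to 231), a log2 ratio of 0.83 (0.57 to 1.11), and was found in 97 of 219 WT cells (44.3%, 37.6 to 51.1) and 134 of 202 KO cells (66.3%, 59.4 to 72.8). After thinning the shares were 26.03% and 47.5%, and in Sc2, where X-linked UMIs were scarce, 0.205% and 0.223%. In Sc1 Tex11 differed less, with 107 and 115 CPM. 1700013H16Rik, whose role is unclear, had a log2 ratio of 0.83 and was found in 43.8% of WT cells (37.2 to 50.7) and 67.8% of KO cells (60.9 to 74.2), and in 29.7% and 44.6% after thinning. In Sc1 it was found in 63.8% and 57.6% of cells. 4930430A15Rik had 1.29, from 33 and 72 UMIs, Iqcb1, a ciliary protein, 1.02 but 0.38 after thinning, Tmx1, a thioredoxin of the endoplasmic reticulum, 0.96, Tdrd6, of the chromatoid body, 0.92, Cyb5r4, a reductase, 0.83 and Spata17, a testis protein, 0.83. The other 2 of the 10 highest, of unclear role in testis, were ENSMUSG00000025658 with 0.84 and 4933402J10Rik with 0.91. The chromosome of ENSMUSG00000025658 was not read. This gene was found in 15.5% of WT and 24.8% of KO cells of Sg, and in 0.205% and 0.335% in Sc2. Kit had 0.58 (-0.06 to 1.24), from 37 and 49 UMIs, an interval that takes in 0. After thinning Kit stood at 13.7 CPM in WT and 39.6 in KO and was found in 4.11% and 10.9% of cells.

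**Figure D4:**
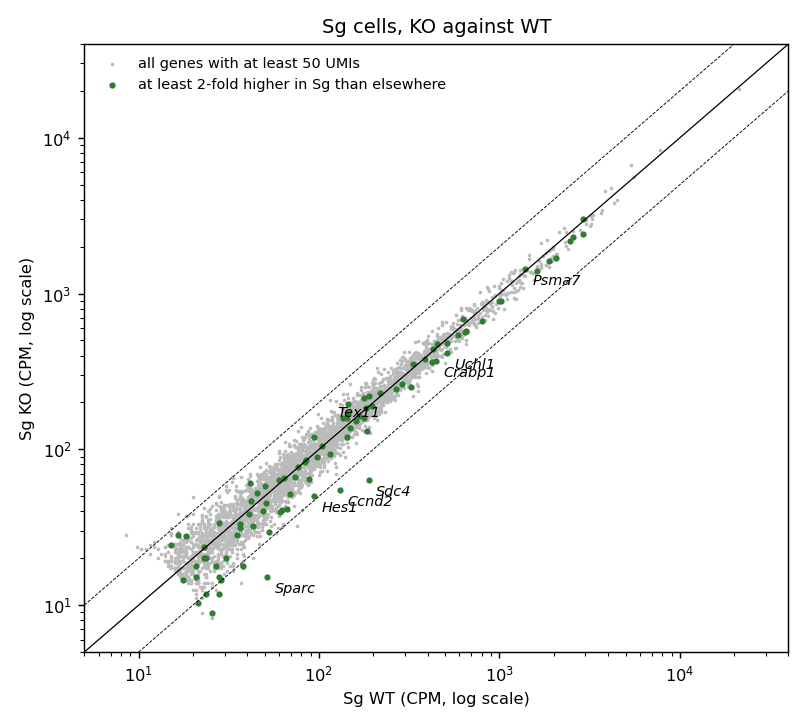
Level of each gene with at least 50 UMIs in Sg, KO on the vertical and WT on the horizontal axis, both in CPM on log scales. The full line marks equal levels and the dashed lines 2-fold, and green points are genes at least 2-fold higher in Sg than elsewhere. Sparc, Sdc4 and Ccnd2 lie below the lower dashed line, Psma7 lies at the full line and Tex11 above it.

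Whole lists differed by little and in both directions. All but 1 of 40 genes of the large ribosomal subunit and all but 2 of 33 of the small subunit were lower in KO Sg, with median log2 ratios of -0.22 and -0.20, whereas 47.5% of all genes read were lower. Lower sums in KO were not limited to Sg, since the large subunit summed to less in KO than in WT in all 13 clusters and the small subunit in 12 of 13, as in Sc1 with 42021 CPM of the large subunit in WT and 38159.7 in KO and in Sc2 with 32021 and 29209.7. Ribosome biogenesis genes had a median of 0.05 and translation factors of -0.08. The list of G2 and M phase had a median of 0.24, with 3 of 27 lower, and S phase of 0.09. Genes of meiotic entry had a median of 0.28 over 16 genes, with 3 lower, and Top2a, a topoisomerase of dividing cells, had 0.40 (0.26 to 0.55). Undifferentiated markers had a median of -0.41 over 5 genes, with 3 lower, while the list summed to 378 CPM in WT Sg and 373 in KO Sg, and differentiating markers of -0.07 over 9 genes, with 6 lower.

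**Figure D5:**
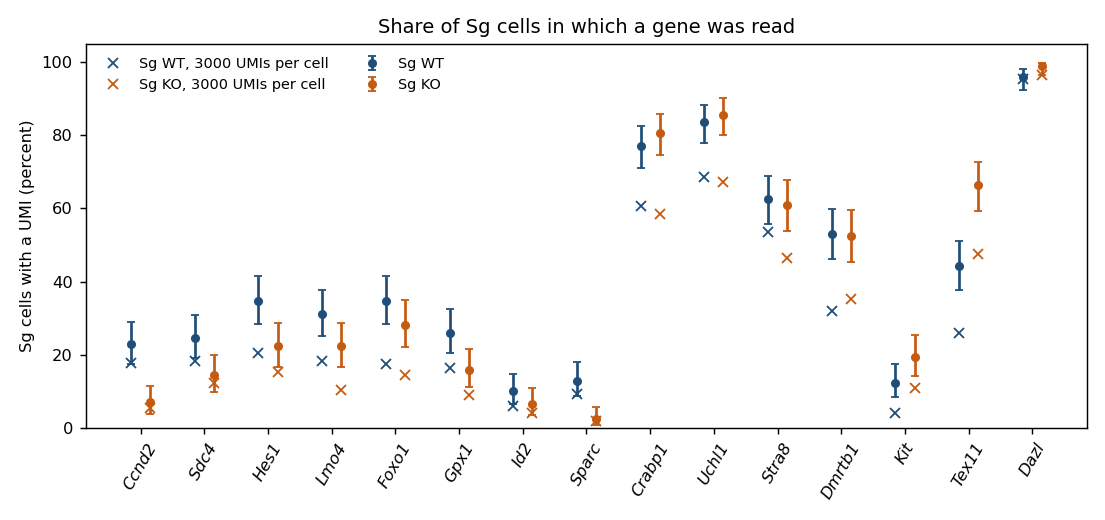
Percent of Sg cells with at least 1 UMI of each of 15 genes, with exact binomial 95% intervals for counting error, WT in blue and KO in orange. Crosses give the share after each cell was thinned to 3000 UMIs. The intervals of WT and KO do not overlap for Ccnd2, Sparc and Tex11, while Crabp1, Uchl1, Stra8 and Dmrtb1 have nearly the same shares in both libraries.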

How the data were processed

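Transcripts of single testis cells were counted in 1 WT and 1 Tex13a-KO library, for each of which 3 testes had been pooled. The authors trimmed reads with fastp, aligned them with STAR 2.5.3a to mm10 (Ensembl annotation), assigned them to genes with featureCounts 1.6.2 and grouped them by cell barcode, UMI and gene, per the methods and the submitters' processing notes. The deposited matrix holds raw UMI counts of 26758 rows in 12408 cells kept by the authors in Seurat 3.2.3, without normalization. The deposited cell table of the authors gives each cell's library, cluster and percent of mitochondrial UMIs. The limits of the authors' cell filter are not given in the sources used here.

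The list of symbols has 25065 lines, fewer than the matrix has rows. The 30 mitochondrial symbols were matched to rows whose UMIs give the mitochondrial percent of each cell, and between them a row was allowed to be unnamed if under 5 cells had a UMI of it. Genes with 1 possible row (5476 symbols, 86.9% of UMIs) were used. Under the stricter assumption that any row may lack a symbol, 2648 symbols are left, among them Hes1, Gpx1, Anp32a, Arpc1b, Prdx2 and Rps2 of the 20 leading markers, but not Ccnd2, Sdc4, Crabp1, Uchl1 or Psma7, whose names therefore rest on this rule. Of the genes with the highest and lowest ratios of KO to WT, so do the names of Tex11, 1700013H16Rik, 4930430A15Rik, Iqcb1, ENSMUSG00000025658, Map4k4, Tmem237, H2afy, Rps4x and Gnl1. The libraries shared 0 cell barcodes. No cell was left out and no doublet caller was run.

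For each cluster of a library the UMIs were summed and scaled to CPM. A ratio of Sg to the highest other cluster has 1 UMI added on each side, and needed 10 UMIs in Sg of each library. For log2 ratios between the genotypes a prior of 1 UMI per gene was split by depth, and 50 UMIs in all were needed. Intervals are exact at 95%. With 1 library per genotype no test was run, and genotype and library cannot be told apart. Chromosomes came from GENCODE vM21 (GRCm38, the build the authors used), for 5383 symbols, and promoters from RefSeq (GRCm38.p6). Scripts ran in Python 3.11.15 with numpy 2.4.6, scipy 1.17.1, pandas 2.3.3 and matplotlib 3.10.9, and were tested on simulated data.

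Named genes are the readable members of the lists, the 20 with the highest ratio in Sg and the 10 highest and 10 lowest ratios of KO to WT, each with at least 100 UMIs. A planned listing of the genes most like Dmrt1 and Rhox13 could not be made, since neither has 1 possible row. Other genes were chosen after their values were seen. The lists, compiled by hand, and the members were chosen with earlier results of these data known. Alternatives were thinning to 3000 UMIs per cell, the mean of single-cell CPM, other totals, priors, minimum counts and name rules, median centring, and leaving out the 5% of cells with most UMIs. Leaving out the Sg cells with somatic markers, and the cells with as many Prm1 UMIs as a spermatid, was added after seeing the data.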

Additional observations from a re-analysis of the deposited data

How the results depend on the processing

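Of 465 values recomputed under an alternative, 427 kept to a limit, 38 did not and 0 reversed. The limit was the counting interval for levels, shares and ratios of KO to WT, and 1.5 times for a count. For the 20 leading markers of Sg it was only that the ratio stayed at least 2-fold, which 146 of 146 values did. Their size moved, as after thinning for Cox7b from 3.74 to 6.23 and for Prdx2 from 3.37 to 2.03. Of the named ratios of KO to WT, 185 of 188 stayed within their interval. Genes that the stricter name rule left out gave no value under it. The exceptions were Sparc at -0.73 without the cells with somatic markers, Ccnd2 at -1.66 as the mean of single-cell CPM and Iqcb1 at 0.38 after thinning. Under the stricter name rule, which leaves fewer genes, 35 genes were at least 2-fold higher in Sg, 3 were 2-fold higher and 8 lower in KO, and the members highest in Sg were 2 of the undifferentiated list, 0 of the differentiating list, 19 and 14 of the large and small ribosomal subunits, 9 of ribosome biogenesis, 3 of the X-linked list and 6 of the chromatin list. With a minimum of 100 UMIs 71 genes were higher in Sg, with 3 undifferentiated markers highest there, and 2 were 2-fold higher and 5 lower in KO. A limit of 4-fold left 24 genes higher in Sg. The counts of genes 2-fold higher and lower in KO were 4 and 9 after thinning, 4 and 9 with a prior of 10 UMIs, and 212 and 314 with no filter, and 32 were higher without the cells with spermatid amounts of Prm1, an alternative chosen after seeing the data, as was that on somatic markers. These counts depend on the settings throughout. The X-linked share of Sg in WT and KO was 1.20% and 1.24% without mitochondrial genes, 1.20% and 1.23% without the spermatid list, 1.12% and 1.10% under the stricter name rule and 1.11% and 1.16% with the higher minimum. After thinning, WT Sg had 150.7 CPM of Ccnd2, 13.7 of Kit, 909 of Stra8 and 1890.4 of Dazl, and KO Sg 1835 of Dazl. Apart from the fewer genes or cells that an alternative leaves, the cause was not tested. No paired analysis was possible because each genotype is 1 library, and for the same reason no replicate could be left out. Genes under about 100 UMIs in Sg have wide intervals, and an absent gene was not detectable at this depth rather than shown to be absent.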
